A study of Drosophila melanogaster with 2 samples.

Results

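Among 5007 sites where a tagged gfzf protein was recovered from the Drosophila melanogaster genome, 416 lay in intergenic DNA away from annotated coding promoters. They are the lines of the filtered peak list on build dm6 whose summit, the point of highest enrichment within a peak, fell outside every protein-coding gene body. Each summit also lay more than 250 bp from every annotated start of transcription (TSS) that Ensembl gives for protein-coding genes. They are called intergenic summits here. The remaining lines were 4188 promoter summits, within 250 bp of a coding TSS, and 403 gene-body summits. The rule sets only a distance from annotated coding starts: 164 of the intergenic summits lay 251 to 500 bp from one, 54 had a promoter summit in the same peak interval, and 42 lay within 250 bp of the start of a non-coding gene.

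The data come from chromatin immunoprecipitation followed by sequencing (ChIP-seq) on whole embryos of mixed sex, 0 to 24 h old. The flies carried a transgene in which gfzf is fused at its C-terminal end to green fluorescent protein (GFP), and an antibody against GFP pulled down chromatin sonicated to 200 to 800 bp. There were 2 biological replicates of this single group, which the labels do not assign to separate embryo collections, and both used 1 control entry. Whole embryos of all these stages mix many cell types, and a peak list holds no expression values, so no cell type could be checked by its markers. Sequencing depth is unknown, and the signal is the authors' peak value on a scale that is not stated.

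The protein gfzf joins zinc fingers of the FLYWCH type to a glutathione S-transferase domain, and its gene is best known for causing death of hybrids between fly species. Many promoters of broadly expressed fly genes carry short core elements such as Motif 1 or the DRE (DNA replication-related element), and transcription starts nearby. Intergenic DNA of the compact fly genome also holds non-coding RNA genes, enhancers and insulators, and the zinc finger protein CTCF is an insulator protein whose recognition sequence is known.

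Sequences of 3 of the 10 strongest intergenic summits are shown first, with the bases within 50 bp of each summit from the RefSeq genome of the dm6 assembly. Capitals mark a match to the Motif 1 core, GGTCACAC. The site upstream of CG3277 spans 2L:3303620-3303720 on the plus strand, had a signal of 3396 and lay 430 bp from the CG3277 TSS. The site upstream of CG18810 spans 2L:20647417-20647517 on the plus strand, had a signal of 3360 and lay 66 bp from the start of Uhg3, a gene whose introns encode small nucleolar RNAs. The site near nod, a kinesin-like gene, spans X:11578986-11579086 on the plus strand, had a signal of 2920 and lay 29 bp from the start of roX2, a non-coding RNA of the male dosage compensation complex.
CG3277: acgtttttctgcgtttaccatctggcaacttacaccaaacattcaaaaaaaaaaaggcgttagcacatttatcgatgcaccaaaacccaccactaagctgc
CG18810 and Uhg3: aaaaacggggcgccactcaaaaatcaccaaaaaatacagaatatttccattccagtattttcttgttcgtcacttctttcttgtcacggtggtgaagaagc
nod and roX2: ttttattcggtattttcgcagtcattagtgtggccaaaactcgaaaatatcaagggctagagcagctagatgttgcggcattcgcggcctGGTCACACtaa

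A set of 3 intergenic summits on 2L with copies of a Motif 1-like sequence is shown over 151 bases, with capitals for GGNCACACT, a looser form of the Motif 1 core searched on both strands. The summit between CG10651 and CG17571 spans 2L:20148439-20148589 on the plus strand and had a signal of 2909. The summit between CG13970 and CG10651 spans 2L:20115988-20116138 on the minus strand and had a signal of 212. The summit near CG31680 spans 2L:20638584-20638734 on the minus strand and had a signal of 3017.
CG10651: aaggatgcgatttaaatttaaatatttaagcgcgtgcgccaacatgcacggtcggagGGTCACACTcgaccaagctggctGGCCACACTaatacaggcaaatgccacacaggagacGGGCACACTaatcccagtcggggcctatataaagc
CG13970: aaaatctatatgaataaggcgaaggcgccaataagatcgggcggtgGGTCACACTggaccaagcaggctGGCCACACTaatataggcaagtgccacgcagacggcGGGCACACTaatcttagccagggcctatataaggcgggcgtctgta
CG31680: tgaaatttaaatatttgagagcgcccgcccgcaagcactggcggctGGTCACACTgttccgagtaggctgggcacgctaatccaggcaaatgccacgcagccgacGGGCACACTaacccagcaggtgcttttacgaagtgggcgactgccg

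These windows were chosen after their values and sequences had been seen. Over the 86320 pairs of intergenic summits whose windows of 50 bp on each side did not overlap, the median edit distance, the number of base changes, insertions and deletions that turn one window into the other, was 55. The pair CG31680 and CG13970 differed by 25 edits, the smallest number of any pair. CG10651 and CG13970 differed by 36 and CG31680 and CG10651 by 39. Other close pairs were CG11030 and Ran, with 35, and CG45086 and CG15550, with 38. The windows were centred on summits, so a shared stretch at unlike distances from the summits adds edits. The first copy in capitals starts later in the printed CG10651 bases than in those of CG13970 and CG31680. Likeness after shifting the windows was not measured, so the edit numbers cannot tell whether the CG10651 pairs stand apart. At least 3 copies of GGNCACACT within 150 bp of the summit were found at 2 of the 416 intergenic summits (0.481%, exact Clopper-Pearson 95% interval 0.0583 to 1.73), CG10651 and CG13970. The same count was 1 of 4188 promoter summits (0.0239%, 0.000605 to 0.133) and 0 of 403 gene-body summits (upper limit 0.911%). The intervals of the intergenic and promoter shares overlap. The pattern was also set after the values had been seen, and both intergenic sites are among the windows printed above. These counts therefore cannot show whether such copies are particular to intergenic summits. At least 2 copies were found at 6 intergenic summits (1.44%) and 52 promoter summits (1.24%), and the intervals of these shares, 0.531 to 3.11 and 0.929 to 1.63, overlap.

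A further 7 intergenic summits show the motifs counted below, most of them with more than 1 match, and are given with the bases within 50 bp of the summit. Capitals mark the Motif 1 core, the DRE (TATCGATA) or the CTCF pattern AGNNGGCGC. The site near Rm62, a DEAD-box RNA helicase gene, spans 3R:6008803-6008903 on the plus strand, and the site near CG3168, with overlapping DRE matches, spans X:6741248-6741348 on the plus strand. The site between slp1 and slp2, forkhead genes of segmentation, spans 2L:3832478-3832578 on the plus strand, and the site between the T-box genes H15 and mid spans 2L:5447394-5447494 on the minus strand. Both have 2 Motif 1 cores. The site near Sid spans 3R:28672345-28672445 on the plus strand and holds CTCF matches on both strands. The site between soti and cv-c spans 3R:14391362-14391462 on the minus strand and holds 3 CTCF matches. The site between zfh1, a zinc finger and homeodomain gene, and wts, a kinase gene of the Hippo pathway, spans 3R:30789405-30789505 on the minus strand and holds a CTCF match and a Motif 1 core.
Rm62: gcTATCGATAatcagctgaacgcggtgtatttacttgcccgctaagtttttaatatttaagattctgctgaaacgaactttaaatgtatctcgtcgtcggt
CG3168: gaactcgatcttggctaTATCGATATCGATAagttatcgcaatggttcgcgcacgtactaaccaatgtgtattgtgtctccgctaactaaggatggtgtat
slp2: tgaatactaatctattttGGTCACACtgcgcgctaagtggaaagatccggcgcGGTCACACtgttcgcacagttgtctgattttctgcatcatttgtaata
mid: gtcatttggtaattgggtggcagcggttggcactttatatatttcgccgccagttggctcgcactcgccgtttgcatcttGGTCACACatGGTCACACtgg
Sid: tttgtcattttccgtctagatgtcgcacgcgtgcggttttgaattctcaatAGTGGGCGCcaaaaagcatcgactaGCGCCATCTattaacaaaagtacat
soti: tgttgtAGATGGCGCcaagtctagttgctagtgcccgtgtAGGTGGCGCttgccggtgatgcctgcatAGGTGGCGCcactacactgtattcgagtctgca
zfh1: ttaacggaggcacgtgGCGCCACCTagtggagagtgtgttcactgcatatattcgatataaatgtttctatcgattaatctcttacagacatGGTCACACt

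A motif match describes letters in a window and does not show a binding site, and a window without one says only that these letters were not in it. The CTCF, double Motif 1 and DRE examples above were picked after the values were seen. Because the series has 1 condition and lines of a list are not replicates, no difference between groups of lines was tested. Intervals are exact Clopper-Pearson 95% intervals over lines for shares and order-statistic 95% intervals for medians, both treating lines as independent.

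Intergenic summits lay closer to coding starts than the space the rule allows. The median distance to the nearest coding TSS was 769 bp (591 to 1081). The genome was also tiled into windows of 50 bp on each side of a centre, of which 409819 (30.9%) had a centre that met the same position rule. Their median distance was 7936 bp. The bin of 251 to 500 bp held 164 intergenic summits (39.4%) and 3.51% of the genome windows, and the bin of 501 to 1000 bp held 61 (14.7%) and 5.48%. Between 1001 and 5000 bp there were 124 intergenic summits (29.8%), against 28.7% of the genome windows. Beyond 5000 bp there were 67 (16.1%), against 62.3%. With 1 summit kept per peak interval, the strongest, the median distance was 1158.5 bp. Among the 323 summits with neither a shared interval nor a non-coding start it was 1133 bp, and 52.0% of these lay beyond 1000 bp.

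The side of the nearest start on which a summit lay varied with distance, as it did for the genome windows. The rule leaves out coding gene bodies, so a point close to a start is nearly always upstream of it. The overall shares below are also not at like distances, because more of the summits lay near starts. The summit was upstream of the nearest coding TSS at 319 intergenic summits (76.7%, 72.3 to 80.7) and downstream at 97, against 60.7% upstream for the genome windows. Within bins it was 100% against 98.6% at 251 to 500 bp, 95.1% against 88.1% at 501 to 1000 bp, 58.1% against 65.9% at 1001 to 5000 bp and 37.3% against 53.8% beyond 5000 bp. The flanking coding genes ran in the same direction around 209 (50.2%, against 49.8% of the genome windows). Around 145 (34.9%, against 24.4%) both flanking genes were transcribed away from the gap. Around 61 (14.7%, against 21.2%) both were transcribed towards it, and 1 summit lay between the last coding gene and a chromosome end. Gap kinds were not compared at like distances from a coding TSS, so these shares do not show a preference for a kind of gap. Of the 61 in convergent gaps, 15 lay in gaps under 1000 bp, such as the 422 bp between zfh1 and wts and the 546 bp between Bap111 and His3.3B, a histone H3.3 gene. The median signal was 179 in divergent, 186 in tandem and 156 in convergent gaps.

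Sites lay closely on both sides of the limit of 250 bp. AnxB11 on X and Tmem43 on 3L each had a summit at 251 bp, with signals of 455 and 297, and CG9107 on 2L had one at 252 bp with a signal of 406. Just outside the rule, promoter summits in intergenic DNA at 250 bp had signals of 147 at rdgBbeta, 147 at CG1416 and 142 at Tsp42El. The 21 members at 251 to 260 bp had a median of 297, against 182 for the 18 promoter summits in intergenic DNA at 241 to 250 bp. RefSeq annotation of the same assembly placed 0 of the 416 intergenic summits within 250 bp of a coding TSS.

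**Figure D1:**
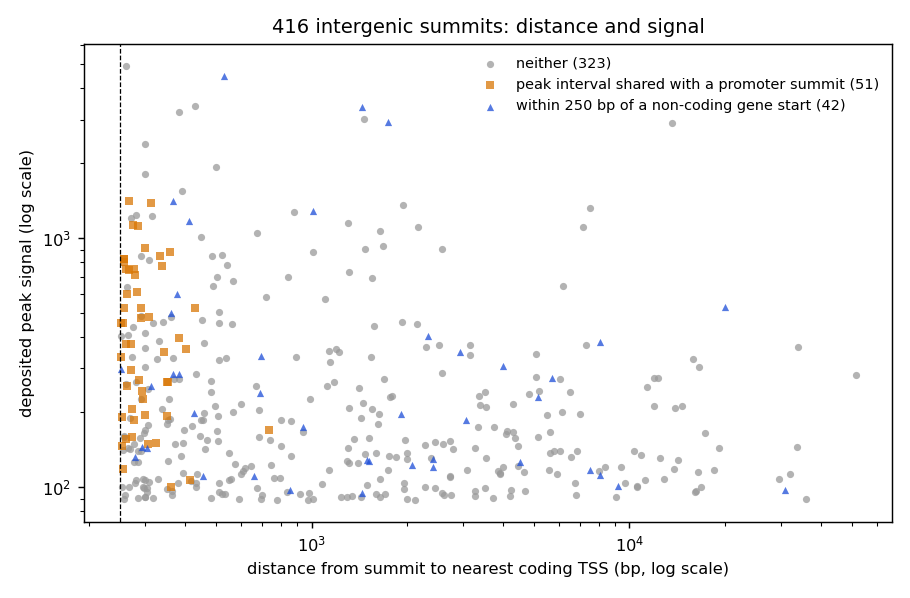
Distance from each of the 416 intergenic summits to its nearest coding TSS (x axis, bp, log scale, dashed line at 250 bp) against the deposited peak signal (y axis, log scale, no stated unit). Points are split into 42 within 250 bp of a non-coding gene start, 51 of the others that share a peak interval with a promoter summit, and 323 that do neither; the shared-interval points crowd at the left edge, with a median distance of 282 bp, and signals above 1000 occur out to 13591 bp.

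Signal at intergenic summits was lower than at promoters, with a few strong exceptions. The median was 175 (158 to 196; range 88.6 to 4938), against 508 (463 to 553) at promoter summits, a ratio of 0.344, and 135 (128 to 144) at gene-body summits. A signal above 1000 was recorded at 31 intergenic summits (7.45%) and at 37.8% of promoter summits. A signal below 200 was recorded at 233 (56.0%) and at 29.4%. The 1000 strongest lines of the list held 10 intergenic summits and the 1000 weakest held 145. By distance the median was 242 at 251 to 500 bp, 159 at 501 to 1000 bp, 151 at 1001 to 5000 bp and 140 beyond 5000 bp. Within the first of these bins, 53 of 164 shared a peak interval with a promoter summit, and the contribution of that neighbouring peak to their signal was not tested.

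The strongest intergenic summit lay 261 bp upstream of RpLP2, which encodes a ribosomal stalk protein. Its signal was 4938 in the filtered list, 3141 in replicate 1's list and 1807 in replicate 2's list. The second lay 85 bp from the start of Uhg4, another host gene of small nucleolar RNAs, and 530 bp from the TSS of Boot, which is known for export of piRNA precursors from the nucleus. Its signals were 4489 in the filtered list, 2801 in replicate 1 and 1703 in replicate 2. Values of the 3 lists were not set against each other, because the scale of the lists is not stated. Within each replicate's list both summits ranked among the 250 strongest, at 161 and 208 for RpLP2 and at 211 and 242 for Boot.

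The other 8 of the 10 strongest also kept close ranks in the 2 replicates. CG3277 ranked 404 in replicate 1 and 449 in replicate 2, CG18810 at Uhg3 412 and 450, and CG6040 490 and 418. CG31680 ranked 519 and 511, nod at roX2 493 and 639, and CG10651 590 and 485. The summit 299 bp from ec, a gene needed for the orderly eye lattice, had a signal of 2395 and ranked 752 and 736. The summit 502 bp from CG3505 had a signal of 1935 and ranked 1026 and 890. Of these 10 sites, 4 lay within 500 bp of a coding TSS, 2 lay at the start of a snoRNA host gene and 1 at roX2, while CG10651 lay 13591 bp from any coding TSS.

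Across the 416 intergenic summits, 401 (96.4%, 94.1 to 98.0) were matched within 100 bp by a summit of each replicate's list of 30000 lines, against 97.2% of all 5007 lines and 97.3% of promoter summits. The filter that made the list asks for agreement between the replicates, so this share is partly set by it. Replicate 1's list held 409, replicate 2's held 404, and 4 were in neither; those 4, at eas, AnxB11, ZnT63C and AP-1-2beta, all shared a peak interval with a promoter summit. Among the 5007 strongest lines of both replicates were 307 intergenic summits (73.8%, 69.3 to 78.0), against 88.2% of promoter summits. The rank correlation of signal between the replicates was 0.886 over the 401 summits, against 0.971 over 4075 promoter summits. Both values come from lines selected for agreement and share the control.

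**Figure D2:**
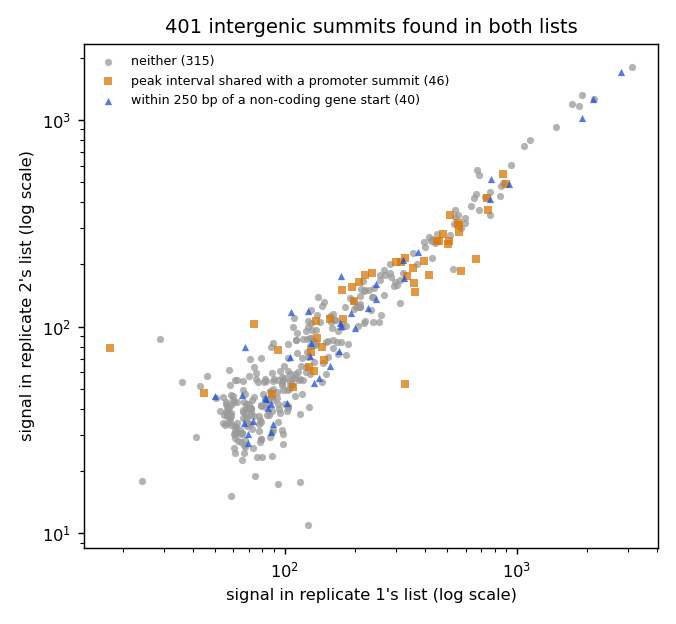
Signal of the 401 intergenic summits found in both replicates' lists, replicate 1 on the x axis and replicate 2 on the y axis (log axes, no stated scale or unit). Points are marked as within 250 bp of a non-coding gene start, as sharing a peak interval with a promoter summit, or as neither; they follow 1 band, with a rank correlation of 0.886.

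Some intergenic summits lay at starts of non-coding genes. A non-coding gene started within 250 bp of 42 intergenic summits (10.1%, 7.37 to 13.4), against 3.02% of all 5007 lines, 2.41% of promoter summits, 1.99% of gene-body summits and 2.32% of the genome windows. The genome windows lay farther from coding starts, so shares are also given within bins of distance. At 251 to 500 bp the share was 7.93% (4.29 to 13.2) of intergenic summits against 4.05% of genome windows. At 501 to 1000 bp it was 9.84% (3.70 to 20.2), an interval that covers the share of the genome windows. At 1001 to 5000 bp it was 12.1% (6.93 to 19.2) against 3.21%, and beyond 5000 bp 11.9% (5.30 to 22.2) against 1.61%. Long non-coding and other non-coding RNAs accounted for 34 of the 42, with a median signal of 235. The rest were 3 pseudogenes, 2 tRNA genes and 1 each of a small nuclear RNA, a small nucleolar RNA and a microRNA precursor. Looked at from the genes, 43 of the 2265 non-coding genes whose own start met the position rule had an intergenic summit within 250 bp (1.90%, 1.38 to 2.55). The 99 rRNA genes and fragments among them had 0, which allows a share of up to 3.66%.

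Host genes of small nucleolar RNAs and the roX genes stood among these sites. Of the 7 annotated Uhg genes, 3 had an intergenic summit at their start: Uhg1 at 41 bp with a signal of 335, Uhg3 at 66 bp with 3360 and Uhg4 at 85 bp with 4489. Another 2, Uhg2 and Uhg5, had a promoter summit of a neighbouring coding gene within 250 bp. Both roX genes, whose RNAs guide the dosage compensation complex to the male X chromosome, had one at their start. It lay 27 bp from roX1 with a signal of 308, 193 in replicate 1 and 116 in replicate 2, and 29 bp from roX2 with a signal of 2920, 1905 in replicate 1 and 1023 in replicate 2. A weaker summit with a signal of 127 lay 188 bp from the roX2 start. These genes were picked after the values had been seen.

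Other classes of non-coding gene had few summits in number, and some of these classes are small. Among genes whose own start met the position rule, 3 of 56 snoRNA genes (5.36%, 1.12 to 14.9) and 1 of 16 snRNA genes (6.25%, 0.158 to 30.2) had an intergenic summit within 250 bp, against 35 of 1671 genes of the ncRNA class (2.09%, 1.46 to 2.90). The larger classes had lower shares, with 1 of 154 tRNA genes (0.649%, 0.0164 to 3.56) and 3 of 269 pseudogenes (1.12%, 0.231 to 3.22). More than 1 such gene can lie at a summit, and a gene near a summit can itself start where the rule is not met. These counts therefore differ from those of summits. The small nucleolar RNA gene near CG13334 lay 124 bp from a summit with a signal of 1412, and the pseudogene CR31032 near CG7824 lay 81 bp from one with 1282. The swa pseudogene swaPsi lay 3 bp from a summit with a signal of 129. The tRNA genes were tRNA:Pro-CGG-2-3, 134 bp from a summit with 256, and tRNA:Ser-TGA-2-1, 129 bp from one with 123. A U6 spliceosomal RNA gene, snRNA:U6:96Ac, lay 112 bp from a summit with 112, and the microRNA gene mir-34 lay 132 bp from one with 118. The B box, the internal promoter element of tRNA genes, was found in 0 of the 416 windows, where its share is 0.0999% over all lines and 0.0439% over the genome windows, too low to be read at this number of summits. The stress-responsive long non-coding RNA gene Hsromega lay 219 bp from a summit with 198.

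Annotated transposable elements and repeats had lower shares at intergenic summits than in the genome windows, but higher shares than over all lines. A transposable element of the annotation covered 8 summits (1.92%, 0.834 to 3.75), against 10.3% of the genome windows. The share was 0.200% of all lines, 0.0478% of promoter summits and 0% of gene-body summits. More than 50% of the bases in the window were soft-masked as repeats at 17 (4.09%, 2.40 to 6.46), against 17.9% of the genome windows. This held for 2.20% of all lines, 2.05% of promoter summits and 1.74% of gene-body summits. Reads that map to several places were handled by the authors in a way the labels and files do not state, and its part in these counts was not tested.

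Core promoter motifs were found at intergenic summits at higher shares than in the genome windows, and the Motif 1 core, DRE and Motif 7 at lower shares than at promoter summits. The Motif 1 core lay within 50 bp of 27 intergenic summits (6.49%, 4.32 to 9.30), against 12.8% of all lines, 14.0% of promoter summits, 7.20% of gene-body summits and 0.134% of the genome windows. The DRE lay within 50 bp of 24 (5.77%, 3.73 to 8.46), against 8.53% of all lines, 9.48% of promoter summits, 1.49% of gene-body summits and 0.224% of the genome windows. The core promoter elements called Motif 6 and Motif 7 were less frequent. Motif 6 was found at 9 (2.16%, 0.994 to 4.07), against 3.46% of all lines, 3.68% of promoter summits, 2.48% of gene-body summits and 0.132% of the genome windows, so its interval covers the promoter share. Motif 7 was found at 12 (2.88%), against 7.01% of all lines, 7.74% of promoter summits, 3.72% of gene-body summits and 0.742% of the genome windows. Any of these 4 elements was found at 69 (16.6%, 13.1 to 20.5), against 28.5% of all lines and 1.22% of the genome windows.

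The matches were local to the summit. In windows 500 bp to the right and left of the intergenic summits, the Motif 1 core was found in 0 and 0.240%, and the DRE in 0.721% and 0.481%. Where present, the Motif 1 core lay at a median of 25.5 bp from an intergenic summit, against 22.5 bp from a promoter summit. For the DRE these medians were 26 and 21.5 bp, and for CTCF 24 and 20.5 bp.

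The CTCF pattern ran the other way, with a higher share at intergenic than at promoter summits. It lay within 50 bp of 25 intergenic summits (6.01%, 3.93 to 8.74), against 2.24% of all lines, 1.53% of promoter summits, 5.71% of gene-body summits and 0.632% of the genome windows. The flanking windows held it in 0.481% and 0.962%. Patterns of other insulator and regulatory proteins did not follow it. GAGAGAG, the GAGA factor repeat, was found at 3 intergenic summits (0.721%), against 0.692% of promoter summits and 1.14% of the genome windows. TGCATANTT, for the insulator protein Su(Hw), was found at 4 (0.962%), against 0.812% and 1.20%. GCCATNTT, for the Polycomb recruiter Pho, was found at 12 (2.88%), against 2.29% and 2.22%. The TATA box hexamer TATAAA was found at 54 (13.0%), against 10.3% and 12.9%. The Initiator core TCAGT was found at 72 (17.3%), against 18.4% and 15.3%. CAGGTAG, for the early embryonic factor Zelda, was found at 2 (0.481%), near the 0.439% of all lines and 0.438% of the genome windows. The E-box form called Motif 5 was also found at 2 (0.481%), against 1.86% of all lines and 0.0744% of the genome windows.

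**Figure D3:**
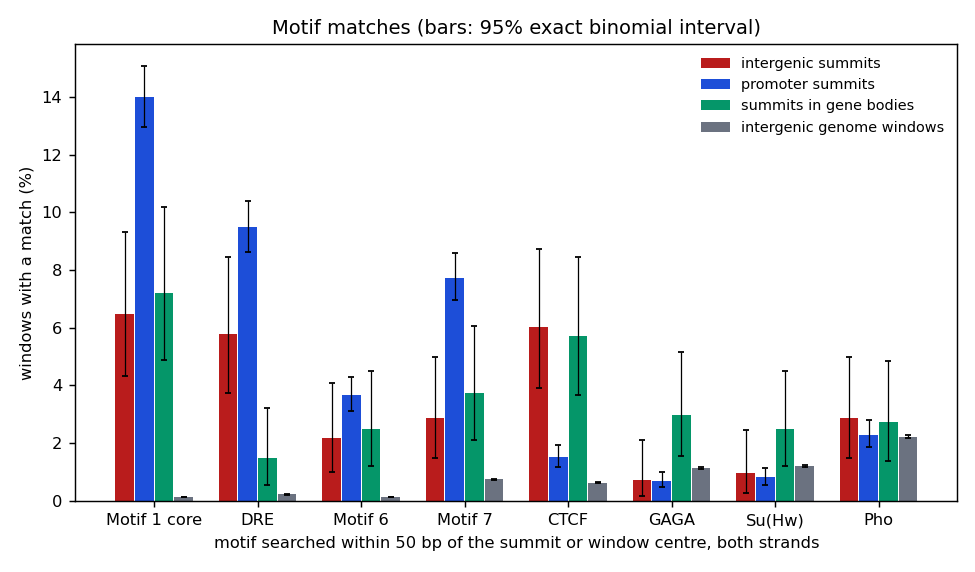
Percent of windows with a match to each motif within 50 bp of the summit or window centre on either strand, for intergenic summits (416), promoter summits (4188), gene-body summits (403) and intergenic genome windows (409819). Bars carry exact Clopper-Pearson 95% intervals; the Motif 1 core and DRE bars are highest at promoter summits, at 14.0% and 9.48%, while the CTCF bar is 6.01% at intergenic and 1.53% at promoter summits.

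Sites with the CTCF pattern ranged widely in signal. Their median signal was 140 (112 to 260), against 179 (158 to 198) without the pattern, and these intervals overlap. Their median distance to a coding TSS was 1495 bp, against 742 bp. The strongest was the Uhg4 site near Boot, with 4489. The summit near Sid had a signal of 273, and that between soti and cv-c, with 3 matches, a signal of 104. In the bithorax complex, a summit between the Hox gene Ubx and CG31275 carried the pattern with a signal of 94.6. A summit near Noa36 faced fkh, a forkhead transcription factor gene, with 102, and another near SP1029 lay in the 1374 bp gap beside stg, a Cdc25 phosphatase gene, with 91.1. Neighbouring summits between Rx and Act57B, an actin gene, both carried it with signals of 140 and 117. Their windows do not overlap, so these are separate matches. The Motif 1 core and the CTCF pattern occurred together at 3 sites, near zfh1 (644), EndoG (598) and CG30103 (140).

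Sites with the Motif 1 core included many far from coding starts. The 27 summits with the core had a median signal of 275 (140 to 714) and a median distance of 3332 bp, against 170 (155 to 193) and 721 bp for the 389 without it. By distance, the core was found at 8 of 164 summits (4.88%) at 251 to 500 bp, 2 of 61 at 501 to 1000 bp, 7 of 124 (5.65%) at 1001 to 5000 bp, and 10 of 67 (14.9%, 7.40 to 25.7) beyond 5000 bp. The DRE was found at 11 of 164 (6.71%), 5 of 61 (8.20%), 8 of 124 (6.45%) and 0 of 67, the last with an upper limit of 5.36%. CTCF was found at 5 of 164 (3.05%), 6 of 61 (9.84%), 8 of 124 (6.45%) and 6 of 67 (8.96%). Intervals of neighbouring bins overlap for each motif, and the trends were not tested.

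**Figure D4:**
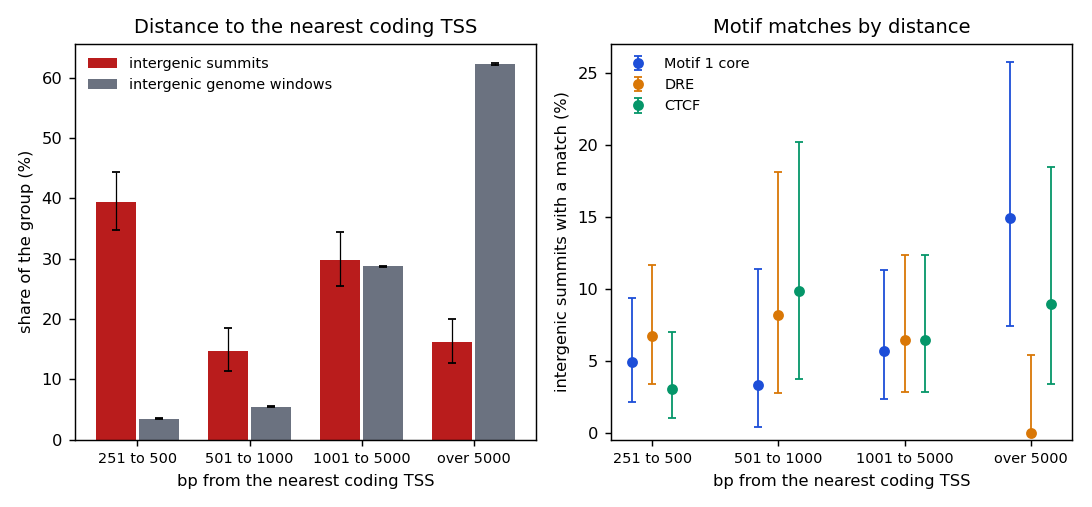
Left, the percent of 416 intergenic summits and of 409819 intergenic genome windows in each bin of distance to the nearest coding TSS (bp); right, the percent of intergenic summits in each bin with a Motif 1 core, DRE or CTCF match within 50 bp. Error bars are exact Clopper-Pearson 95% intervals; the nearest bin holds 39.4% of summits and 3.51% of windows, and beyond 5000 bp the Motif 1 core was found at 14.9% and the DRE at 0 of 67 summits.

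The 10 Motif 1 sites more than 5000 bp from a coding TSS varied widely in signal. Such a site can still lie near a gene body, as did the zfh1 and wts site, 253 bp from the zfh1 body. CG10651 had 2909 and the zfh1 and wts site 644. Lower values were found at nub, a POU homeodomain gene, with 275 at 12336 bp, Sr-CII with 231 and CG13970 with 212. The weakest were mid with 129, CG7906 with 100.9, CG7560 with 100.2 and CG17601 with 89.4 at 35976 bp. Of the 67 summits beyond 5000 bp, 8 lay within 250 bp of a non-coding gene start, 3 of them with the Motif 1 core, among which were Sr-CII and CG7906.

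The strongest sites with a core motif were CG31680 (3017), nod at roX2 (2920), CG10651 (2909), the site of the pseudogene CR31032 near CG7824 (1282) and prage (1278), and each held the Motif 1 core. The highest signal with a DRE was 1126, at Rm62, followed by CG3168 with 734. Motif 6 reached 1111 at CG8668 and 1069 at jing, a zinc finger gene. The median signal with a DRE was 157, against 177 without it.

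Short words counted without a motif in mind led with parts of the DRE and the Motif 1 core. The 7-letter word ATCGATA, part of the DRE, was in 10.1% of intergenic windows, 1.80% of their flanks and 18.9% of promoter windows. GTCACAC, part of the Motif 1 core, was in 6.97%, 0.481% and 14.8%. Some words were more frequent at intergenic than at promoter summits: TTCAAAA was in 9.62%, 4.45% of flanks and 6.06% of promoter windows, and CAAACCA in 4.81%, 0.481% and 1.91%. AGGTGGC, which overlaps the CTCF pattern, was in 5.05%, 0.841% and 2.17%. TCTGGCA was in 5.05%, 0.601% and 4.68%. The median GC content within 50 bp of the summit was 38.6% (37.6 to 39.6), against 41.6% at promoter summits and 40.6% in the genome windows. By distance it was 36.6% at 251 to 500 bp, 38.6% at 501 to 1000 bp and 39.6% at 1001 to 5000 bp. Beyond 5000 bp it was 41.6% (39.6 to 43.6), so the lower value did not hold for the distant summits.

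Of the 67 summits beyond 5000 bp, 97.0% were matched in both replicates' lists. The farthest intergenic summit lay 51526 bp from the TSS of spok, a cytochrome P450 gene of ecdysone synthesis, with a signal of 281. The next were CG17601 at 35976 bp (89.4), a pair near CG17571 at 33804 and 33594 bp (367 and 145), and CG43245 at 31929 bp (113). All 5 were found in both replicates' lists. In all, 145 intergenic summits lay more than 1000 bp from every gene start, coding or not.

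Members were spread over 369 gaps between coding genes, of which 333 held 1 member, 27 held 2 and 9 held 3 or more. The gap of 121 kb between CG10651 and CG17571 held 3, at 13591 bp from the CG10651 TSS (2909) and at 33804 and 33594 bp from the CG17571 TSS (367 and 145). The adjoining gap between CG13970 and CG10651 held 3 more, with signals of 208 to 697. The gap of 247 kb between Pld and jing held 2 with signals of 1327 and 1069, at 7527 and 1646 bp from the jing TSS.

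By chromosome, intergenic summits made up 7.64% to 8.80% of the lines on 2L, 2R, 3L, 3R and X. On the small chromosome 4 they were 14 of 66 lines (21.2%, 12.1 to 33.0). Their signals ranged from 90.7 near RpS3A to 1052 upstream of Sox102F, and they included sites at the transcription factor genes ey, pan, pho and zfh2. None of the 14 lay at a non-coding start or shared an interval with a promoter summit.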

How the data were processed

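The authors made the peak lists for each replicate, for the pooled reads and for the set passing their irreproducible discovery rate (IDR) filter, and deposited them on dm6 and dm3; the filtered dm6 list and the replicates' dm6 lists were used, while the dm3 lists and the file inventory were not used here. Column 7 of each deposited list is the peak signal of the authors' caller, compared only within a list. The sources used here do not give the aligner, peak caller, IDR settings or depth, so no interval covers read-counting error.

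Summits were assigned with the Ensembl release 115 annotation and the RefSeq genome sequence of the same assembly, which no peak overran. Replicate summits within 100 bp were linked. Motifs, 13 in all, were searched on both strands within 50 bp of summits, of points 500 bp away and of genome windows of the same width. Edit distances came from edlib 1.3.9.post1. Computation used Python 3.11.15, numpy 2.4.6, pandas 2.3.3 and scipy 1.17.1, and the motif search and classification were tested on simulated data. With 1 group of 2 replicates nothing was tested between conditions.

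The members, lists and motifs were chosen with earlier results of these data known. The rule for named members took the 10 strongest, the 5 farthest from a coding TSS, up to 2 strongest per class of non-coding gene, 3 on each side of the 250 bp limit and the 5 strongest with Motif 1 core, DRE, Motif 6 or Motif 7. Others were named after their values were seen, as were the GGNCACACT search, the CTCF share as a result, the RefSeq check and the setting without shared intervals and non-coding starts. Alternatives changed the TSS distance, gene bodies, summits per interval, window, linking distance and list; leaving out a replicate meant using the 5007 strongest lines of the other. 1 site is not reported here.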

Additional observations from a re-analysis of the deposited data

How the results depend on the processing

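Of 108 alternative values computed, 77 stayed within the 95% interval of the reported value (for the member count, within 1.5 times) and 31 moved outside it. Leaving out each replicate moved no value outside: the member count was 412 and 404, the median distance 625 and 684.5 bp, the ratio of median signals 0.365 and 0.373, and the Motif 1 core share 5.34% and 6.93%. Nor did the RefSeq check, added after seeing the data, or leaving out summits in bodies of non-coding genes. No paired analysis was possible because there was 1 group. A minimum distance of 500 bp left 252 members with a median distance of 2034.5 bp, 98.4% in both replicates and 1.19% in shared intervals, and 1000 bp left 191 with 3257 bp, 98.4%, 0% and a GC median of 40.6%; the distances follow from the limit. With the strongest summit per interval, the median distance was 1158.5 bp, the signal ratio 0.260 and the shared-interval share 0.829%. In the stronger 50% of the list these were 410 bp, 0.475 and 24.8%, with 98.0% in both replicates, the Motif 1 core at 12.9% and any core motif at 28.7%; the cause was not tested. Windows of 25 bp each side gave 2.40% for the Motif 1 core, 2.40% for the DRE, 7.45% for any core motif and 2.40% for CTCF. Those of 100 bp gave 23.3% for any core motif and 10.1% for CTCF, since window length sets how many matches are seen. The GC median was 41.2% with 25 bp and 36.8% with 100 bp, so it depended on the window. GC of the genome windows was taken with 50 bp each side only. Non-coding starts within 100 bp were at 5.77%. Linking within 50 bp gave 88.7% in both replicates and within 200 bp 98.3%. Without shared intervals and non-coding starts, a setting added after seeing the data, the median distance was 1133 bp and the signal ratio 0.308. Depth is unknown, so weak and absent peaks cannot be told apart.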

Other observations

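Motif matches at the intergenic summits varied with the orientation of the flanking coding genes as follows, with no test of the differences. The DRE was found at 4.83% of 145 summits in divergent gaps, 5.74% of 209 in tandem gaps and 8.20% of 61 in convergent gaps. For the Motif 1 core the shares were 4.14%, 8.13% and 6.56%, and for CTCF 4.14%, 7.18% and 6.56%. Summits in convergent gaps lay farther from coding starts, at a median of 3524 bp, against 506 bp in divergent gaps. The definition of the gaps favours this order, because flanking genes start at a divergent gap and end at a convergent gap.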
